A study of Caenorhabditis elegans with 2 samples.

Results

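The genes described here build the C. elegans eggshell or sit at the oocyte surface: cpg-1, cpg-2, cpg-3, egg-1, egg-2, egg-3, chs-1, cbd-1, perm-2 and perm-4. They were listed by name for their roles, with earlier results of these data known, and make up 10 of the 19973 protein-coding genes of the nuclear chromosomes. ChIP-seq recovered DNA bound by OEF-1 from whole hermaphrodites of strain OP383 at the L4 stage, 52 h after synchronization of bleached, starved L1 larvae. The strain carries unc-119(tm4063) on III and the transgene wgIs383, which adds a copy of oef-1 (F49E8.2) with a C-terminal GFP-FLAG tag, and the precipitation used an anti-GFP antibody. There was 1 group of 2 samples, biological replicates 3 and 4 in the labels, and no untagged sample was analysed here. Since the samples were whole animals, the tissue in which a site was occupied is not resolved.

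For each gene, the summits within 1000 bp of its annotated 5' end were read from 4 lists on ce11: a candidate list for each replicate, a pooled candidate list, and an optimal list of 1339 reproducible peaks. Peaks carry the authors' signal value, whose scale is not stated, so signals are set against each other only within a list and lists are set against each other by rank (1 is the strongest). The candidate lists held 30000 peaks in the pooled data, 30000 in replicate 3 and 23600 in replicate 4, and keep weak peaks and background. Of the optimal peaks, 21 lay on mitochondrial DNA. Replicate 4 had the higher rank number, that is the weaker place in its list, at each of the 4 genes with an optimal summit when the strongest summit is read.

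In C. elegans the eggshell is laid down around the fertilized egg in layers. An outer vitelline layer holds CBD-1, PERM-2 and PERM-4, a chitin layer is made by the chitin synthase CHS-1, and an inner layer holds the chondroitin proteoglycans CPG-1 and CPG-2. EGG-1 and EGG-2 are LDL-receptor-like membrane proteins that the oocyte needs for sperm entry, and EGG-3 is a phosphatase-like protein that ties CHS-1 and other factors to the oocyte cortex. OEF-1 is a nuclear protein of the germline.

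The bases under the summits are shown first for 5 of the genes: cpg-1, cpg-2 and egg-1, which are in the optimal list, egg-2 as the paralogue of egg-1, and egg-3, the strongest by pooled rank of the genes outside that list. Each line runs 5' to 3' on the gene's strand and covers 50 bases on each side of the summit, from the optimal list for the first 3 and from the pooled list for the other 2, read from the WBcel235 genome of RefSeq. Capitals mark the word GGCGCA, the word ACGCGC or the word GCGCCA on either strand, and also the word ACAGTAC, which was chosen after reading these windows. The windows lie at chrIII:4489060-4489160 (cpg-1), chrIII:7104195-7104295 (cpg-2), chrIII:5727937-5728037 (egg-1), chrIII:7060863-7060963 (egg-2) and chrII:10884604-10884704 (egg-3).
cpg-1: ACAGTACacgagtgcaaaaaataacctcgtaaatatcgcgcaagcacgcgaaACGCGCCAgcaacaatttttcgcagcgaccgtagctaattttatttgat
cpg-2: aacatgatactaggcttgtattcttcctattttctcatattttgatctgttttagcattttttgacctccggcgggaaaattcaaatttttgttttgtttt
egg-1: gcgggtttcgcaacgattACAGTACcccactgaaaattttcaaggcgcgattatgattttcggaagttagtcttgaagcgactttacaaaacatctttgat
egg-2: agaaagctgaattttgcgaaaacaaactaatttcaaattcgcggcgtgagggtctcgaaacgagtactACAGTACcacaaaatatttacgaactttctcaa
egg-3: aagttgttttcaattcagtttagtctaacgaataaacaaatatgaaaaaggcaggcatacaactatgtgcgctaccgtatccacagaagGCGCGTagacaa

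OEF-1 had an optimal summit within 1000 bp of 4 of the 10 genes: cpg-1, egg-1, chs-1 and cpg-2. Over all coding genes 1054 of 19973 (5.28%) had one. The 4 signals ran from 162 to 414, and each lay above 146, the upper quartile of the signals at those 1054 genes, whose median was 106. The lowest signal admitted to the optimal list was 74.0, and the next gene by signal, egg-3, had 56.2 in the pooled list. The optimal list is the 1339 strongest pooled candidates, so the optimal and pooled signals are the same numbers. At 500 bp the same 4 genes had an optimal summit, against 3.87% of all coding genes. At 200 bp only egg-1 and chs-1 did, 2 of 10 against 1.89%.

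**Figure D1:**
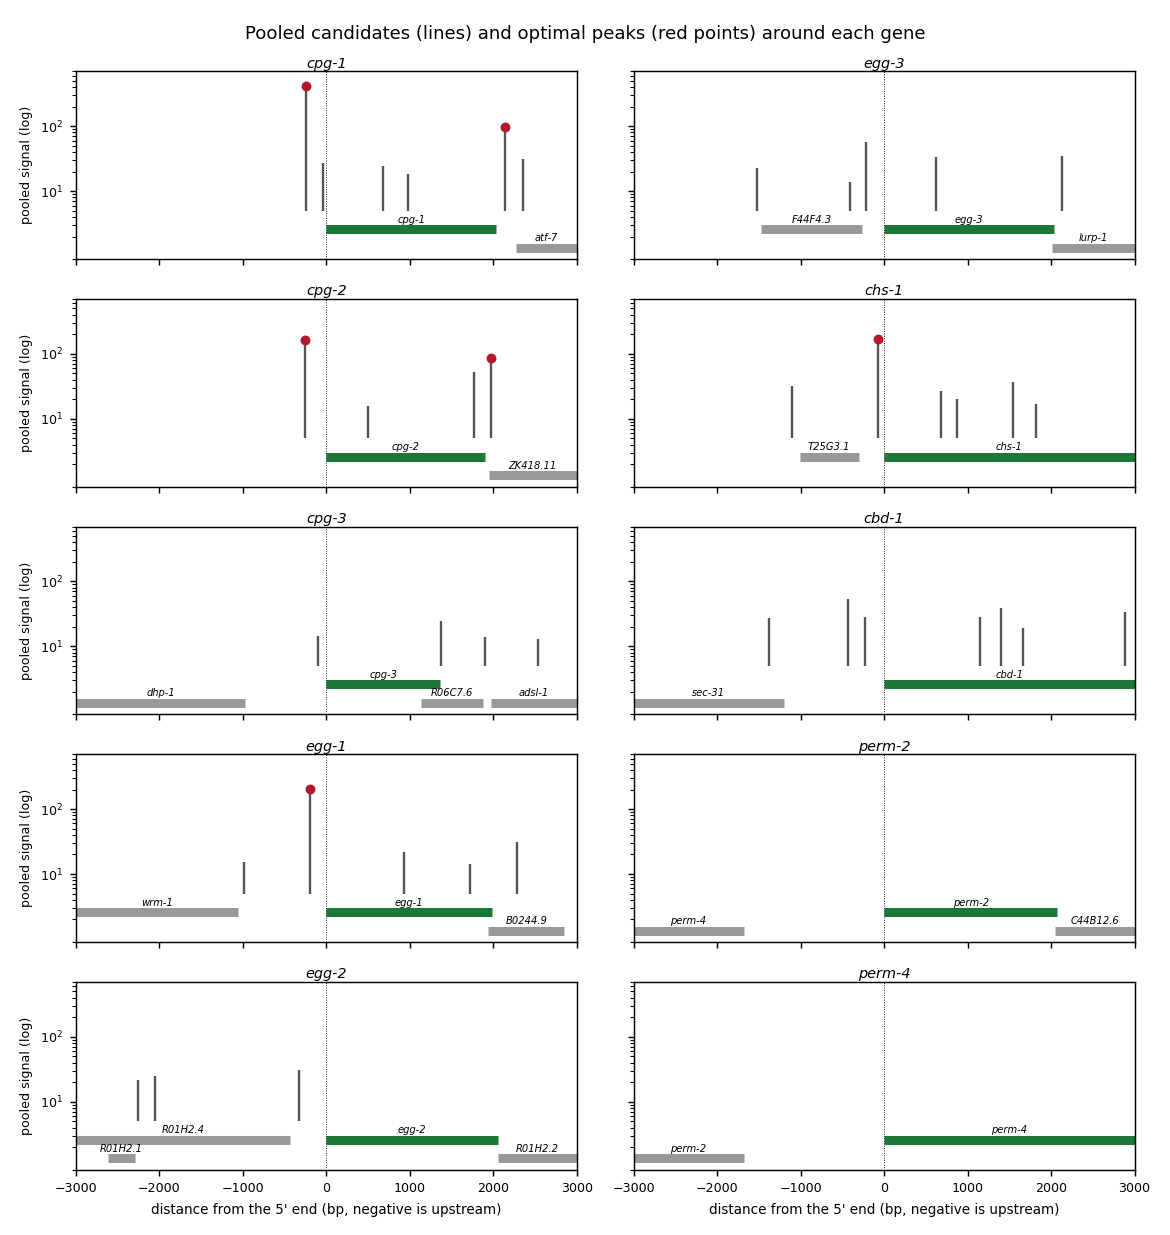
Pooled candidate summits around each gene, with distance from the annotated 5' end in bp on the gene's strand (negative is upstream) against the authors' pooled signal on a log axis. Vertical lines are candidates, red points are peaks of the optimal list, the green bar is the gene and grey bars are neighbours, with genes of the opposite strand one step lower; red points stand upstream of cpg-1, cpg-2, egg-1 and chs-1 and past the 3' ends of cpg-1 and cpg-2, and the panels of perm-2 and perm-4 hold no line.

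Of the chondroitin proteoglycan genes, cpg-1 (WBGene00000465, III, 4489359 to 4491392, plus strand) had the highest signal of the 10. Its optimal peak, III 4488925 to 4489284, had its summit 249 bp upstream of the 5' end and a signal of 414, rank 29 of 1339, or 8 among nuclear peaks. In replicate 3 the summit lay at the same base with a signal of 322 (rank 20), and in replicate 4 it lay 246 bp upstream with a signal of 89.9 (rank 49). A weaker candidate 42 bp upstream, of rank 8050 in the pooled list and 4879 in replicate 3, is nearer the 5' end, so a strict nearest-summit rule reads that one in those 2 lists. No other gene starts within 1000 bp of the optimal summit, and the next gene upstream, the divergent gene ins-17, starts 11787 bp from the 5' end of cpg-1.

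The related gene cpg-2 (WBGene00015102, III, 7102092 to 7103990, minus strand) had an optimal peak at 7104174 to 7104313, with the summit 255 bp upstream and a signal of 162, rank 239. Replicate 3 placed it 257 bp upstream (signal 130, rank 190) and replicate 4 295 bp upstream (signal 35.4, rank 534). The summit of cpg-2 thus stood at nearly the same distance as that of cpg-1. The third proteoglycan gene, cpg-3 (WBGene00011063, I, 7244937 to 7246295, plus strand), had only weak candidates, 107 bp upstream with signal 14.2 in the pooled list (rank 24471) and 62 bp upstream with signal 11.4 in replicate 3 (rank 22831). Replicate 4 had none within 1000 bp of it. The pooled summit at cpg-3 also lies 863 bp from the 5' end of dhp-1, on the opposite strand.

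The chitin synthase gene chs-1 (WBGene00000496, I, 7554855 to 7559916, plus strand) had the optimal summit nearest its 5' end, 74 bp upstream, in a peak at 7554697 to 7554895 with a signal of 166 (rank 222). Replicate 3 had it 73 bp upstream (signal 142, rank 156) and replicate 4 35 bp upstream (signal 27.7, rank 946). The first gene upstream, T25G3.1, lies on the same strand and its 5' end is 937 bp from the summit, which is 1 of 3 cases among the 10 in which another gene starts within 1000 bp of the summit read. In each case that start was farther off than the one of the eggshell gene.

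At the oocyte surface, the paralogues egg-1 and egg-2 differed. The summit of egg-1 (WBGene00015083, III, 5728180 to 5730159, plus strand) lay 193 bp upstream in a peak at 5727874 to 5728101, with a signal of 206 (rank 127). It lay 193 bp upstream in replicate 3 (signal 153, rank 126) and 191 bp upstream in replicate 4 (signal 56.6, rank 144). At egg-2 (WBGene00019811, III, 7058527 to 7060583, minus strand) the candidate lay 330 bp upstream in the pooled list (signal 30.7, rank 6382) and in replicate 3 (signal 14.6, rank 15657), and 293 bp upstream in replicate 4 (signal 13.2, rank 6341). So egg-1 stood within the first 144 ranks of each list and egg-2 at rank 6341 or weaker in each candidate list. The 600 bp upstream of egg-1 and of egg-2 share no exact run longer than 12 bases.

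The cortical gene egg-3 (WBGene00009701, II, 10882408 to 10884441, minus strand) was not in the optimal list, which ends at rank 1339. Its pooled candidate, 213 bp upstream, had a signal of 56.2 (rank 2071), and replicate 3 had one 214 bp upstream with 45.0 (rank 1850). In replicate 4 the nearest candidate lay 73 bp upstream with a signal of 11.5 (rank 9124), and the strongest within 1000 bp lay 861 bp downstream, in coding sequence (rank 6155). The -log10 q-value was 2.75 in the pooled list and 2.50 in replicate 3, the highest value of each of those lists, which 2525 and 3033 peaks share, but 0.365 in replicate 4.

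The vitelline layer genes had no optimal summit at their 5' ends. At cbd-1 (WBGene00010351, IV, 11372991 to 11377627, plus strand), which encodes a chitin-binding protein, the nearest pooled candidate lay 226 bp upstream (signal 28.1, rank 7632). A stronger one lay 430 bp upstream (signal 53.7, rank 2236), and replicate 3 had it 429 bp upstream (signal 45.8, rank 1784). Replicate 4 had only a candidate 535 bp upstream (signal 9.78, rank 13297). The -log10 q-value of the stronger candidate was 2.75 in the pooled list and 2.5 in replicate 3, the highest value of each list. That of the replicate 4 candidate was 0.186. The 5' end of sec-31, on the opposite strand, is 973 bp from the nearest pooled summit.

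The divergent pair perm-2 (WBGene00016636, IV, 1126790 to 1128865, plus strand) and perm-4 (WBGene00016638, IV, 1121494 to 1125107, minus strand) lay in a stretch nearly free of candidates. Between their 5' ends lie 1682 bp. No pooled candidate lay within 3000 bp of either 5' end, whereas 8 of the 10 genes, and 62.9% of all coding genes, had one. The nearest pooled summit was 5135 bp from perm-2 and 6818 bp from perm-4. Replicate 3 had 2 weak candidates upstream of perm-4, at 183 bp (signal 16.3, rank 12939) and 421 bp (signal 12.5, rank 20026). Replicate 4 had none nearer than 9744 bp to perm-2.

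**Figure D2:**
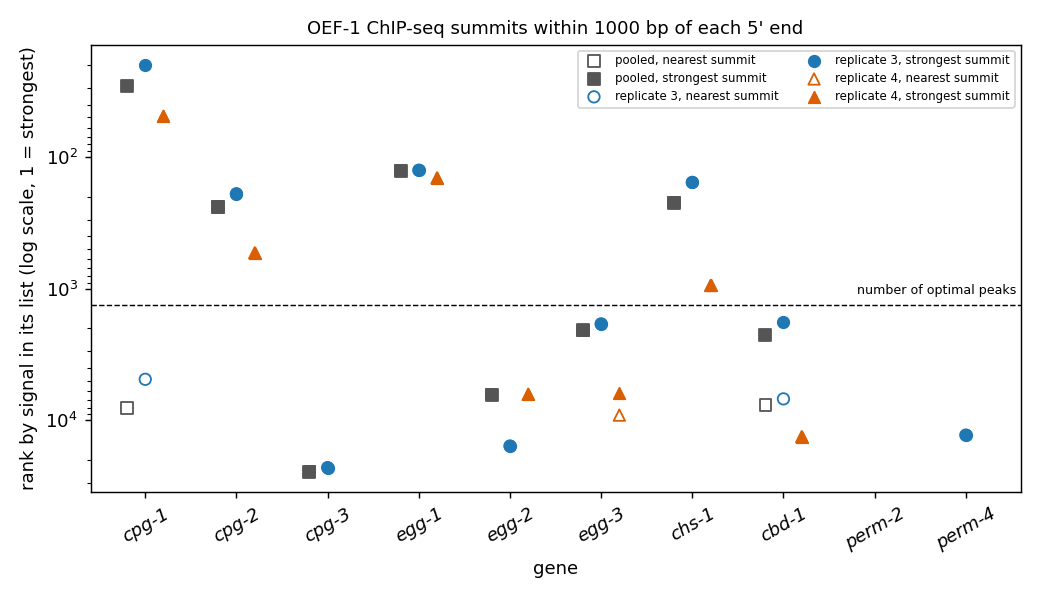
Rank by signal of the summit nearest each 5' end (open) and of the strongest summit within 1000 bp (filled) in the pooled, replicate 3 and replicate 4 candidate lists, on an inverted log axis where 1 is the strongest. The dashed line marks 1339, the size of the optimal list; cpg-1, cpg-2, egg-1 and chs-1 lie above it in all 3 lists by their strongest summit, no other gene lies above it in any, and perm-2 has no point.

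Read by the strongest summit within 1000 bp, the 4 genes of the optimal list were also among the 1339 strongest peaks of each replicate, and none of the other 6 was in either. The optimal list was made from these same replicates, so this overlap is partly built in. Of all coding genes, 727 (3.64%) had a top summit in both replicates, beside 1054 with an optimal summit. Among the strongest 669 peaks of each replicate were 3 of the 10 genes, against 1.84% of coding genes, since chs-1 ranked 946 in replicate 4. The order cpg-1 before egg-1 held in every list. The order of chs-1 and cpg-2 did not, since chs-1 came first in the optimal list and in replicate 3 (rank 156 against 190), and cpg-2 came first in replicate 4 (rank 534 against 946). With 1 value per replicate, the places of chs-1 and cpg-2 do not differ beyond the spread between replicates. The order of the other genes changed as well, with cbd-1 ahead of egg-2 in replicate 3 and behind it in replicate 4.

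In the whole candidate lists most of the 10 genes had some summit, as did many other genes. The pooled list had a candidate within 1000 bp of 8 of them, against 45.0% of all coding genes, replicate 3 of 9, against 46.6%, and replicate 4 of 7, against 42.0%. The presence of a candidate therefore says less about a gene than its rank. The 4 optimal peaks at 5' ends were 140 to 360 bp wide, narrower than 440 bp, the commonest width in the list, as were 30.4% of its nuclear peaks.

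The summits nearest the 5' ends lay upstream of the coding sequence. In each list, every nearest summit at these genes was upstream of the 5' end and outside annotated coding genes: 4 of 4 in the optimal list, 8 of 8 in the pooled list, 9 of 9 in replicate 3 and 7 of 7 in replicate 4. The lists come from the same 2 replicates, so these counts are not independent. Other candidates within 1000 bp lay downstream of the 5' end at cpg-1, cpg-2, egg-1, egg-3 and chs-1. Over all coding genes with a summit within 1000 bp, the shares upstream were 77.6% in the optimal list, 54.6% in the pooled list, 52.5% in replicate 3 and 54.8% in replicate 4. The median position of the optimal summits was -221 bp at the 4 genes and -198 bp at all 1054. The strongest summits of the replicates lay 3 bp apart at cpg-1, 2 bp at egg-1, and 38 bp at both cpg-2 and chs-1, against a median of 32.0 bp at coding genes with an optimal summit. At genes without one that median was 273 bp, and here the distances were 37 bp at egg-2, 106 bp at cbd-1 and 1075 bp at egg-3.

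**Figure D3:**
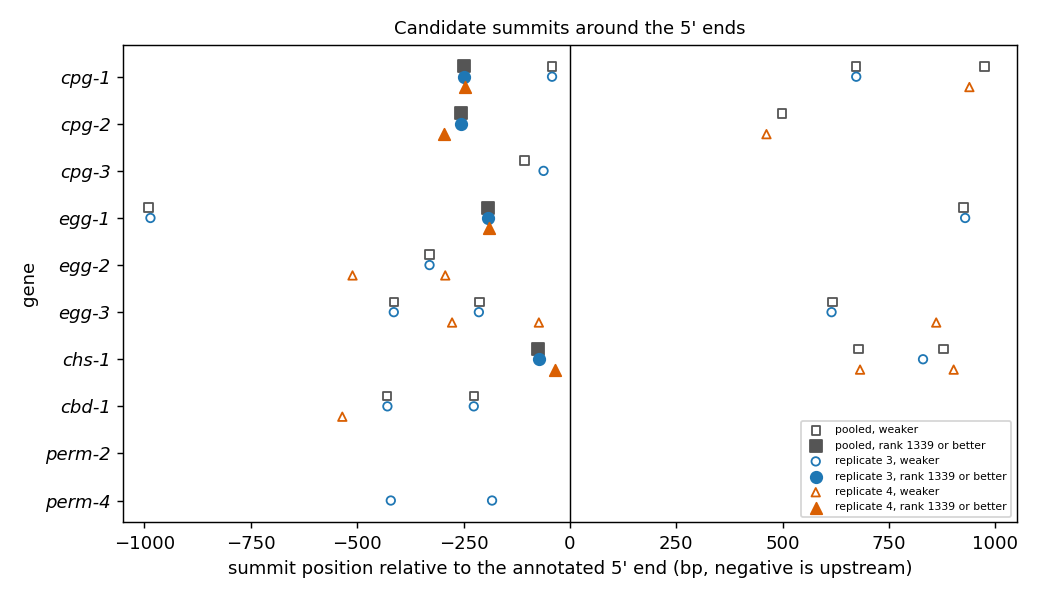
Position of each candidate summit within 1000 bp of the annotated 5' end (vertical line), in bp on the gene's strand with upstream to the left, for the pooled list (squares), replicate 3 (circles) and replicate 4 (triangles). Filled points rank 1339 or better in their list; they lie between 35 and 295 bp upstream, at cpg-1, cpg-2, egg-1 and chs-1.

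At each of the 8 genes with an optimal or pooled summit, that summit was nearer the gene's own 5' end than any other coding 5' end. None lay within 250 bp of a tRNA, snoRNA or snRNA gene. The shares that follow are for optimal summits only, which 4 of the 8 had. At cpg-3, egg-2, egg-3 and cbd-1 the summit was a pooled candidate picked as the nearest to the gene. Of the 1054 coding genes with an optimal summit, 276 (26.2%) had it nearer another coding 5' end and 128 (12.1%) had it near such a small RNA gene.

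An optimal peak lay just past the 3' end of some of these genes, a comparison made after seeing the loci. Within 500 bp of the annotated 3' end, 3 of the 10 genes had an optimal summit, against 3.37% of all coding genes. At cbd-1 the peak (IV, 11377619 to 11377769) had its summit 89 bp past the 3' end, outside coding genes, with a signal of 171 (rank 208). It ranked 225 in replicate 3 and 205 in replicate 4, so cbd-1 held a strong peak beyond its 3' end and only candidates outside the optimal list upstream. The nearest coding 5' end, that of fbxb-76, was 1638 bp from it.

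At cpg-1 the second peak (III, 4491459 to 4491568) had its summit 106 bp past the 3' end and 129 bp from the 3' end of the convergent gene atf-7, with a signal of 95.8 (rank 803). Its rank was 847 in replicate 3 and 1557 in replicate 4. At cpg-2 (III, 7101795 to 7102234) the summit lay 77 bp past the 3' end, in the 3' UTR of the convergent gene ZK418.11, with a signal of 85.8 (rank 993), and ranked 767 in replicate 3. In replicate 4 the strongest candidate there lay 107 bp inside cpg-2 (rank 2102). By the top peaks of replicate 4 alone, 1 of the 10 genes, cbd-1, had a summit at the 3' end, against 3.29% of all coding genes, and by those of replicate 3 alone all 3 did, against 3.49%. Both cpg-1 and cpg-2 had optimal summits at both ends, as did 1.15% of all coding genes and 82 of the 686 (12.0%) that had one at the 5' end and were longer than 1500 bp.

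The 3' windows of cpg-1 and cbd-1, the same length as those above, hold none of the marked words. Their GC contents are 32.7% and 35.6%, and they lie at chrIII:4491448-4491548 and chrIV:11377666-11377766, given on the gene's strand.
cpg-1, 3' side: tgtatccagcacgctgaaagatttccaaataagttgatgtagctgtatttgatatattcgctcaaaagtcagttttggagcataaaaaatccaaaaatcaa
cbd-1, 3' side: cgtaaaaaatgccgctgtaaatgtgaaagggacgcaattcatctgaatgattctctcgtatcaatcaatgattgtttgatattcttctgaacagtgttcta

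The 5' windows differed in their words and base composition. Of the 8 genes with a window, cpg-1 and egg-3 held 1 or more of the GC-rich words, that is the word GGCGCA, the word ACGCGC and the word GCGCCA. At cpg-1 the word ACGCGC overlaps the word GCGCCA, and they begin 2 and 4 bases past the summit. At egg-3 ACGCGC is on the opposite strand, 39 bases past the summit. The egg-3 window is a pooled and not an optimal one. Among the optimal windows, those of cpg-1, cpg-2, egg-1 and chs-1, only that of cpg-1 held a GC-rich word. The share with any of these 3 words on either strand was 25.5% of the 1318 nuclear optimal summits and 5.27% of windows of the same length centred at -221 bp from the 5' end of every coding gene. ACAGTAC, chosen after reading these windows, stood in those of cpg-1, egg-1 and egg-2, the last a pooled and not an optimal window. It stood in 2.81% of all optimal windows and 1.26% of the upstream windows. Because of how the word was chosen, these shares cannot show an enrichment at the 8 genes. GC content was 43.6% at cpg-1 and chs-1, 40.6% at egg-1 and 30.7% at cpg-2, which lies below the lower quartile of the optimal windows (37.6%; median 44.6%). Below the optimal list, windows held 38.6% at egg-3, 37.6% at egg-2, 32.7% at cbd-1 and 25.7% at cpg-3, beside a median of 33.7% in the upstream windows of all coding genes.

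The 39 other listed genes covered eggshell formation, egg activation, and oocyte receptors and yolk uptake, with chs-2 as a somatic paralogue of chs-1. Of them, 8 had an optimal summit within 1000 bp of the 5' end, to be read against the same 5.28%. Values at these genes are those of the strongest summit within 1000 bp. In the list of egg activation and cortical granule release these were 3 of 8: egg-5, egg-4 and sep-1. The pseudophosphatases EGG-4 and EGG-5 hold the kinase MBK-2 at the oocyte cortex, and the separase SEP-1 takes part in granule release. At egg-5 the signal was 336 (rank 42, and 41 and 37 in replicates 3 and 4), but its summit, 592 bp upstream, lay 25 bp from the snRNA gene sls-2.4. The egg-4 summit, 328 bp upstream, had a signal of 142 (rank 346, and 351 and 441 in the replicates), with no other gene starting within 1000 bp. At sep-1 the summit (signal 84.0, rank 1031) lay 346 bp upstream and nearer, at 210 bp, to the divergent gene nefr-1. Neither mbk-2 nor rab-11.1, a vesicle GTPase gene, had an optimal summit within 1000 bp of the 5' end. An optimal summit did lie within 500 bp of the 3' end of rab-11.1. In replicate 4 rab-11.1 had a candidate of rank 1129, 639 bp upstream. The divergent gene rpl-7 starts 981 bp from the 5' end of rab-11.1, on that side.

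Of 6 genes of oocyte receptors and yolk uptake, rme-2 and rab-5 had one. The yolk receptor gene rme-2 had its optimal summit 108 bp upstream with a signal of 142 (rank 343, and 288 and 647 in replicates 3 and 4). At rab-5, of early endosomes, it lay 764 bp upstream (signal 91.3, rank 897) and 834 bp from nmat-2, and the strongest candidate of replicate 4 lay elsewhere, 383 bp downstream. The endocytosis genes rme-1 and chc-1 had none. Of 7 permeability barrier genes, perm-1 alone had one, 282 bp upstream (signal 127, rank 445, and 519 and 376 in the replicates). The perm-1 summit nearest the 5' end was a weak pooled candidate of rank 28967, and at rme-2 and rab-5 the nearest ranked 6554 and 4498. At perm-3 the pooled candidate had rank 2076 and that of replicate 4 rank 1164, and at perm-5 rank 20525.

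Of 4 other chondroitin proteoglycan genes matched, cpg-4 had one, 133 bp upstream (signal 90.8, rank 907), which was in the top peaks of replicate 3 (rank 735) but not of replicate 4 (rank 2315). The pooled ranks at cpg-7 and cpg-8 were 13478 and 13201, and the summit nearest cpg-8 ranked 29062. Of 13 genes that make chitin or chondroitin precursors, sqv-8, a glucuronosyltransferase gene, had one, 674 bp downstream of the 5' end and near the threshold of the list (signal 75.1, rank 1299; rank 3715 in replicate 4). The hexosamine synthesis genes gfat-1 and gfat-2 had none. The other chitin synthase gene, chs-2, had no candidate within 1000 bp in any of the 4 lists.

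**Figure D4:**
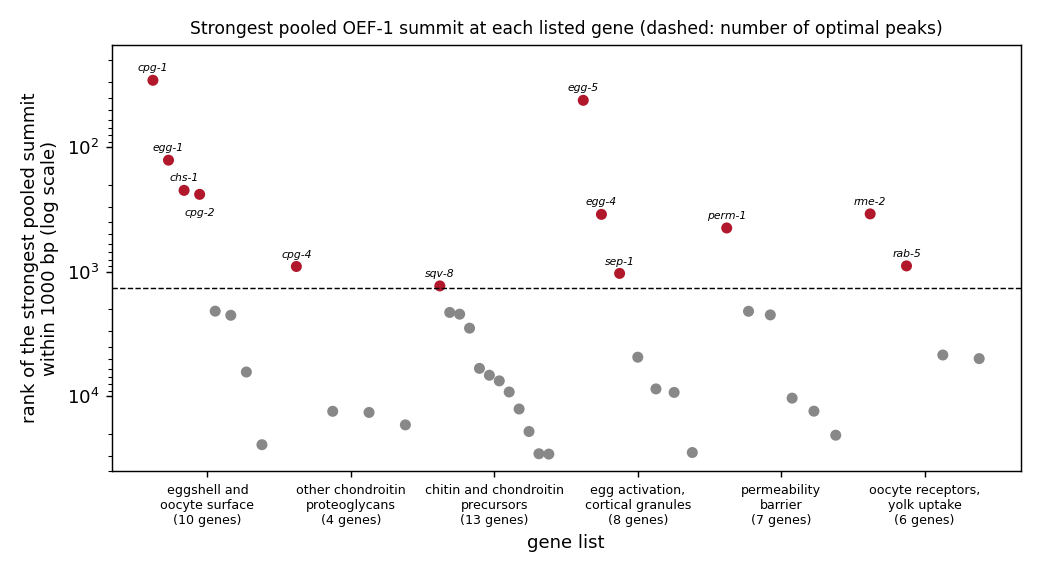
Rank of the strongest pooled summit within 1000 bp of the 5' end for each gene of 6 lists, on an inverted log axis, with red points for ranks inside the optimal list (dashed line at 1339). Genes with no pooled candidate have no point; red points number 4 among the eggshell and oocyte surface genes, 3 among egg activation genes, 2 among oocyte receptor and yolk uptake genes and 1 in each of the other 3 lists.

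The genes most like cpg-1 were found by the smallest sum of absolute differences in log2 rank over the pooled and both replicate lists, among 1041 coding genes with an optimal summit and a candidate in each list. By the strongest summit these were rpl-15, a ribosomal protein gene, and K11H12.8, then set-16, a histone methyltransferase gene (ranks 25, 17 and 34). The ranks of rpl-15 and K11H12.8 were identical to each other in each of the 3 lists (32, 25 and 57). Both genes therefore appear to have been read from the same shared peak, and they are not separate matches to cpg-1. By the nearest summit, which at cpg-1 is the weak candidate in 2 lists, the genes most like cpg-1 were Y75B12B.11, rfc-4 and hcp-3.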

How the data were processed

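Per the README texts deposited with the data, the authors made a candidate list for each replicate from its alignment and 1 shared control, a pooled list from both alignments, and an optimal list by irreproducible discovery rate. Each deposited peak has a signal value and a -log10 q-value. Neither peak caller nor aligner is named, and a version is not given in the sources used here. Read depth is unknown, which leaves no basis for an interval on any peak. The ce10 lists were not used.

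Here, with Python 3.11.15 and pandas 2.3.3, ce11 summits (peak start plus offset, 1-based) were set against Ensembl release 115 (WBcel235, the same assembly). The 5' end is the gene's outermost annotated base. Summits were taken by the nearest and by the strongest signal within 1000 bp. Peak assignment was tested on simulated positions. Counts are descriptions, with no test. Members and lists were chosen with earlier results of these data known. Of the listed names, cpg-5, cpg-6 and syn-4 matched no gene symbol. Named are all 10 genes, genes that start within 1000 bp of their summits, listed genes with an optimal summit, up to 2 per list without one, and 3 genes most like the strongest by each of the nearest and strongest readings; genes beside the 3' ends, and the gene upstream of cpg-1, were named after their values were seen. No per-sample column was left out.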

Additional observations from a re-analysis of the deposited data

How the results depend on the processing

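The 4 genes with an optimal summit numbered 4 also at 500 bp, at 2000 bp, from the start codon, by peak interval, in the stronger 50% of the optimal list and in each replicate's top peaks (without replicate 3 or 4: 4 and 4). At 200 bp they were 2 (1.89% of all coding genes), as were those in the top peaks of both replicates (1.11%), which became 3 with 669 top peaks (1.84%). Of the 39 other listed genes, 8 (background 5.28%) became 2 at 200 bp (1.89%), 5 at 500 bp (3.87%) and 13 at 2000 bp (7.96%). They became 4 in that stronger part of the list (2.86%). By the top peaks of replicate 3 alone (5.26%) or replicate 4 alone (5.46%) they were also 8, but not the same genes. In replicate 4, cpg-4 and sqv-8 dropped out and rab-11.1 and perm-3 came in. Only 6 were in the top peaks of both replicates (3.64%), with rab-5 at a different site in each. The 2 of 8 windows with a GC-rich word became 1 of 8 at 25 bp and 4 of 8 at 100 bp on each side. They were 1 of 9 at replicate 3 summits and 2 of 7 at replicate 4 summits. No share over all summits was taken at these settings, and a wider window has more room for any word. These counts therefore cannot be read as more or fewer than elsewhere. The count of 3 genes at 3' ends, added after seeing the data, ranged from 1 (background 3.29%) to 3 (3.49%) when a replicate was left out. Taking the strongest instead of the nearest summit moved 4 of 28 ranks beyond the replicates' spread, at cpg-1 and cbd-1. That spread is between the nearest-summit ranks of the replicates. At these genes they belong to different summits, 42 and 246 bp upstream of cpg-1 and 226 and 535 bp upstream of cbd-1. Counting nuclear peaks only moved 7, at egg-1, cpg-3 and perm-4. Only replicate 3 held a summit at cpg-3 and perm-4, so no spread existed there and any change counted as moved. The unknown depth limits statements on weak candidates. No paired analysis was possible because there is 1 group.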
